A study of Mus musculus with 12 samples.

Results

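The 8 core circadian clock genes Arntl, Clock, Npas2, Cry1, Cry2, Per1, Per2 and Per3 were followed in muscle of tumour-bearing mice. They were found by gene symbol among 19432 named genes of a whole-transcript array, and each had 1 row. Arntl rose 3.68-fold in gastrocnemius of C26 mice, Clock and Cry2 rose there as well, and Per3 fell in both muscles. The changes of Npas2, Cry1, Per1 and Per2 were not called in either muscle. Over 20 alternative settings, the call held in 14 for Per3 in heart and in 15 for Cry2 in gastrocnemius.

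The study comprised 4 groups of 3 arrays. C26 mice received cells of the C26 colon carcinoma, a mouse line whose tumours cause cachexia, a loss of muscle and fat, under the skin of the flank. Non-tumour-bearing (NTB) mice received 100 µl of the same RPMI/PS medium without cells. All mice were Balb/c-DBAj hybrids aged 10 to 11 weeks. The gastrocnemius, a calf muscle, and the heart were taken whole and from separate cohorts, so that muscle and cohort cannot be told apart. The labels give neither the time of day at which tissue was taken, nor the light cycle, food intake, sex or days of tumour growth. Their part in the results was not tested.

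The circadian clock of a mammalian cell is a feedback loop of transcription. ARNTL (also called BMAL1) pairs with CLOCK or its paralogue NPAS2 and activates genes that carry E-boxes, among them the Per and Cry genes. The PER and CRY proteins gather, return to the nucleus and repress that activator, so that the loop takes about a day to complete. In a second loop, ROR receptors activate and REV-ERB receptors (Nr1d1 and Nr1d2) repress Arntl. Skeletal muscle and heart each run such a clock. In mouse tissues Arntl and the Per genes peak at nearly opposite times of day.

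Expression is given as the deposited values, taken from their range to be on the log2 scale. The submitters' processing notes name RMA, a method that corrects background and normalizes between arrays. Array medians over all 35556 transcripts lay between 5.93 and 6.09. All 9 heart muscle markers were higher in NTB heart than in NTB gastrocnemius, and all 8 limb muscle markers were lower. C26 gastrocnemius array 3 stood apart. Its values differed from the mean of the other arrays of its group with an SD of 0.47 over genes, against 0.17 to 0.34 on the other 11 arrays. Values without it are given where they matter. Nothing in the labels says whether the 3 biological replicates of a group were 3 animals, and p values measure the spread between these arrays.

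A change is a difference of mean log2 values, C26 minus NTB, and the standard error of the fit (SE) follows the ± sign. A gene is said to have risen, fallen or been called where its limma p, adjusted by Benjamini-Hochberg over all 19432 genes, was below 0.05. In a whole muscle, fewer cells of a type and less RNA per cell cannot be told apart.

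The promoters of the members were searched for the elements through which clock proteins act, because the members are known to be targets of each other. RefSeq promoter windows (GRCm38.p6, 250 bases before to 50 after a transcript start) were available for 7 of the 8 genes, 11 windows in all. A set of 5 elements was searched on both strands. These were the E-box CACGTG, the E-box variant CACGTT, the D-box TTATGTAA or TTACGTAA, the ROR element core TAGGTCA or TGGGTCA, and the cAMP response element TGACGTCA. None of these motifs overlapped another in these windows. The windows with a match follow, 5′ to 3′ along the gene, with matches in capitals (AACGTG is CACGTT read on the other strand).
Arntl window 2 (chr7:113207261-113207560, plus strand): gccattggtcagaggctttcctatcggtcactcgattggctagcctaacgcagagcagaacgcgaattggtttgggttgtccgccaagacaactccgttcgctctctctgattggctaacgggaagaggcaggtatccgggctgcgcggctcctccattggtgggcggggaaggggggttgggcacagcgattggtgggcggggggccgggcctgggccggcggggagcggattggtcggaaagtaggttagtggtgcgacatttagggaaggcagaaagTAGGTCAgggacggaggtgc
Per3 (chr4:151044616-151044915, minus strand): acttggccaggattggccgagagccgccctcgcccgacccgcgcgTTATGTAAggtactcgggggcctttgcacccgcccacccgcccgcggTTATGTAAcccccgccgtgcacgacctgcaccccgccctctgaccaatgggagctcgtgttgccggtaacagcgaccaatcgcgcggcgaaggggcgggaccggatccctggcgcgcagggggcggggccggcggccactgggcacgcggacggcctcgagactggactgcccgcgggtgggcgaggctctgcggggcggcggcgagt
Cry2 (chr2:92434020-92434319, minus strand): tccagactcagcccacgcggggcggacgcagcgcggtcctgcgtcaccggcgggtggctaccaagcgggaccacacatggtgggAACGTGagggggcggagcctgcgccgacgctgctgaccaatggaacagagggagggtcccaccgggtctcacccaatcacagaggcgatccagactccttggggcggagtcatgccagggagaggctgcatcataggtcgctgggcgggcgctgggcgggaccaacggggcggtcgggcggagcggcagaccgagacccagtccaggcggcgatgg
Cry1 (chr10:85185005-85185304, minus strand): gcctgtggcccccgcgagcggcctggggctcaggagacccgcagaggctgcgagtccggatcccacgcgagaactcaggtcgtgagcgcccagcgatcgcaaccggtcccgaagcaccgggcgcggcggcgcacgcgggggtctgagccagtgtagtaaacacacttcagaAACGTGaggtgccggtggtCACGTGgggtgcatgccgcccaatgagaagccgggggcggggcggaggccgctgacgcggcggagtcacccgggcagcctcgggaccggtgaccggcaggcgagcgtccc
Per1 window 1 (chr11:69098699-69098998, plus strand): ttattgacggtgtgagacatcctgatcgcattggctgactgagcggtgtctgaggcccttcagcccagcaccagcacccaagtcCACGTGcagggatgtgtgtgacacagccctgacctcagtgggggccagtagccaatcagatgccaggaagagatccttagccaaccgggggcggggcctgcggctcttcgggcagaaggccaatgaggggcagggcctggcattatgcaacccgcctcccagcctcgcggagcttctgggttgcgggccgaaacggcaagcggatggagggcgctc

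Window 2 of Arntl held a ROR element core 31 bases after the start, an element present in 6.45% of the 32851 RefSeq windows. Per3 held a pair of D-boxes, at 205 and 158 bases before the start. D-boxes are bound by the activators DBP, TEF and HLF and the repressor NFIL3, and 1.06% of windows held one. Cry1 held an E-box 60 bases and an E-box variant 79 bases before the start. Window 1 of Per1 held an E-box, and Cry2 an E-box variant, both 166 bases before the start. The E-box was present in 7.15% and the variant in 4.68% of windows. The cAMP response element, in 1.79% of windows, was in none of the 11. No match to any element was found in the 3 windows of Clock, the window of Npas2, window 1 of Arntl or window 2 of Per1. A match of letters is a description of the window and not evidence of binding.

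**Figure D1:**
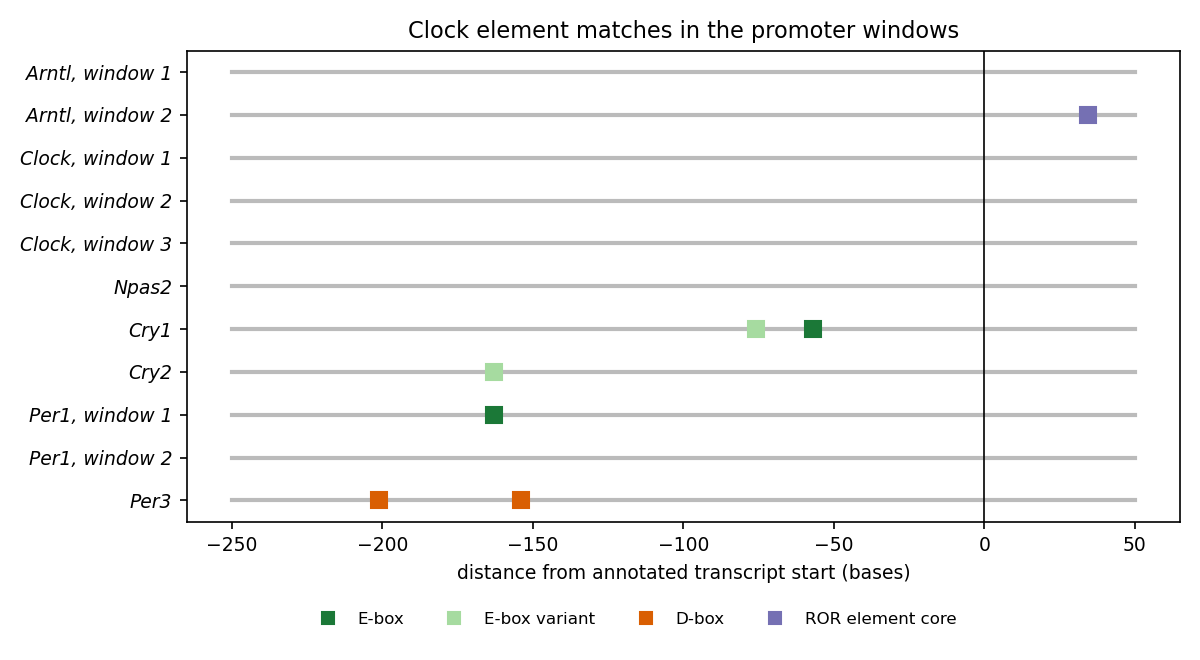
Matches to the clock elements in the 11 promoter windows of 7 core clock genes, by distance in bases from the annotated transcript start (vertical line). Squares are matches, coloured by element. Per3 has D-boxes at -205 and -158, and the ROR element core of Arntl lies at 31, after the start.

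In C26 gastrocnemius 4 of the 8 clock genes were called, 3 of them higher and 1 lower. Over all genes 11.9% were called in that comparison, 6.45% higher and 5.44% lower. The 3 genes of the activating arm were all higher on every C26 array than on any NTB array, and so was Cry2, while Per3 was lower on every one. In all, the groups did not overlap for 5 of the 8 genes, against 19.4% of all genes. Leaving out C26 gastrocnemius array 3, again 4 of the 8 were called (17.3% of all genes), and with the replicate number as a block 4 as well (16.4%).

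Arntl, whose protein pairs with CLOCK or NPAS2, had log2 values of 8.34, 7.91 and 7.86 on the C26 gastrocnemius arrays, against 6.30, 6.09 and 6.08 on the NTB arrays. The groups lay far apart, with 1.56 between the lowest C26 and the highest NTB array. The difference was 1.88 ± 0.16 (n = 3 arrays per group, limma adjusted p = 2.16e-06), a 3.68-fold rise with a 95% interval of 2.90 to 4.66. It was called under each of the 20 alternative settings, with changes between 1.73 and 1.97.

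Clock, the partner of ARNTL, had 8.40, 8.31 and 8.05 on the C26 arrays, against 7.82, 7.70 and 7.76 on the NTB arrays. Array 3 was the lowest of the C26 group and still lay above the NTB arrays. The rise was 0.49 ± 0.12 (1.41-fold, limma adjusted p = 0.0110), and 0.59 without C26 gastrocnemius array 3. Npas2, which can take the place of CLOCK beside ARNTL, had 5.57, 5.79 and 5.71 on the C26 arrays, against 5.16, 5.30 and 5.22 on the NTB arrays. Here too the groups did not overlap, but the difference of 0.46 ± 0.16 was not called (limma adjusted p = 0.0706). Its adjusted p was 0.0399 without C26 heart array 1 and between that value and 0.212 over the 20 alternatives.

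The cryptochromes inhibit the activator directly, and of them Cry2 was called. Cry2 had 8.95, 9.26 and 9.05 on the C26 gastrocnemius arrays, against 8.36, 8.76 and 8.21 on the NTB arrays, so that the groups were apart but spread within each. The rise was 0.64 ± 0.17 (1.56-fold, limma adjusted p = 0.0205). The call was lost when C26 gastrocnemius array 2 was left out (adjusted p = 0.0918), and likewise NTB gastrocnemius array 1 (0.0791) or 3 (0.0936), within a range of 0.00703 to 0.0970 over the 20 alternatives. Cry1 had 8.11, 7.84 and 7.56 on the C26 arrays, against 7.87, 7.78 and 7.61 on the NTB arrays. These groups overlapped, and the difference was 0.09, with a 95% interval of -0.24 to 0.42.

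The 3 Period genes encode the partners of the cryptochromes in repression, and of them Per3 was called. Per3 had 7.16, 7.69 and 6.98 on the C26 gastrocnemius arrays, against 7.90, 8.13 and 8.03 on the NTB arrays. Every C26 array lay below every NTB array, and array 2 was the highest within each group. Per3 fell by 0.74 ± 0.16 on the log2 scale (1.68-fold lower, limma adjusted p = 0.00573), and by 0.60 without C26 gastrocnemius array 3.

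Per2 had 7.25, 7.87 and 7.29 on the C26 arrays, against 7.64, 8.11 and 7.63 on the NTB arrays. The groups overlapped, and each C26 array lay below the NTB array of the same number. The difference of -0.33 ± 0.19 was not called (limma adjusted p = 0.389), with a 95% interval of -0.74 to 0.09. With the replicate number as a block, because same-numbered gastrocnemius arrays deviated together, it was -0.33 ± 0.11 and not called either (adjusted p = 0.0557, the lowest of the 20 alternatives, which reached 0.759). Per1, which responds to glucocorticoids and cAMP as well as to the clock, had 8.01, 8.93 and 8.76 on the C26 arrays, against 8.49, 8.85 and 8.81 on the NTB arrays. The C26 arrays spanned 0.92, the widest span of any clock gene in any group, and enclosed the NTB arrays. The difference was -0.15, with a 95% interval of -0.56 to 0.26, and 0.13 without C26 gastrocnemius array 1.

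With the gastrocnemius arrays fitted alone, 1 of the 8 genes was called (4.66% of all genes), and it was Arntl (limma adjusted p = 4.44e-04). Adjusted p was then 0.142 for Clock, 0.0970 for Cry2 and 0.0718 for Per3, with the same differences.

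**Figure D2:**
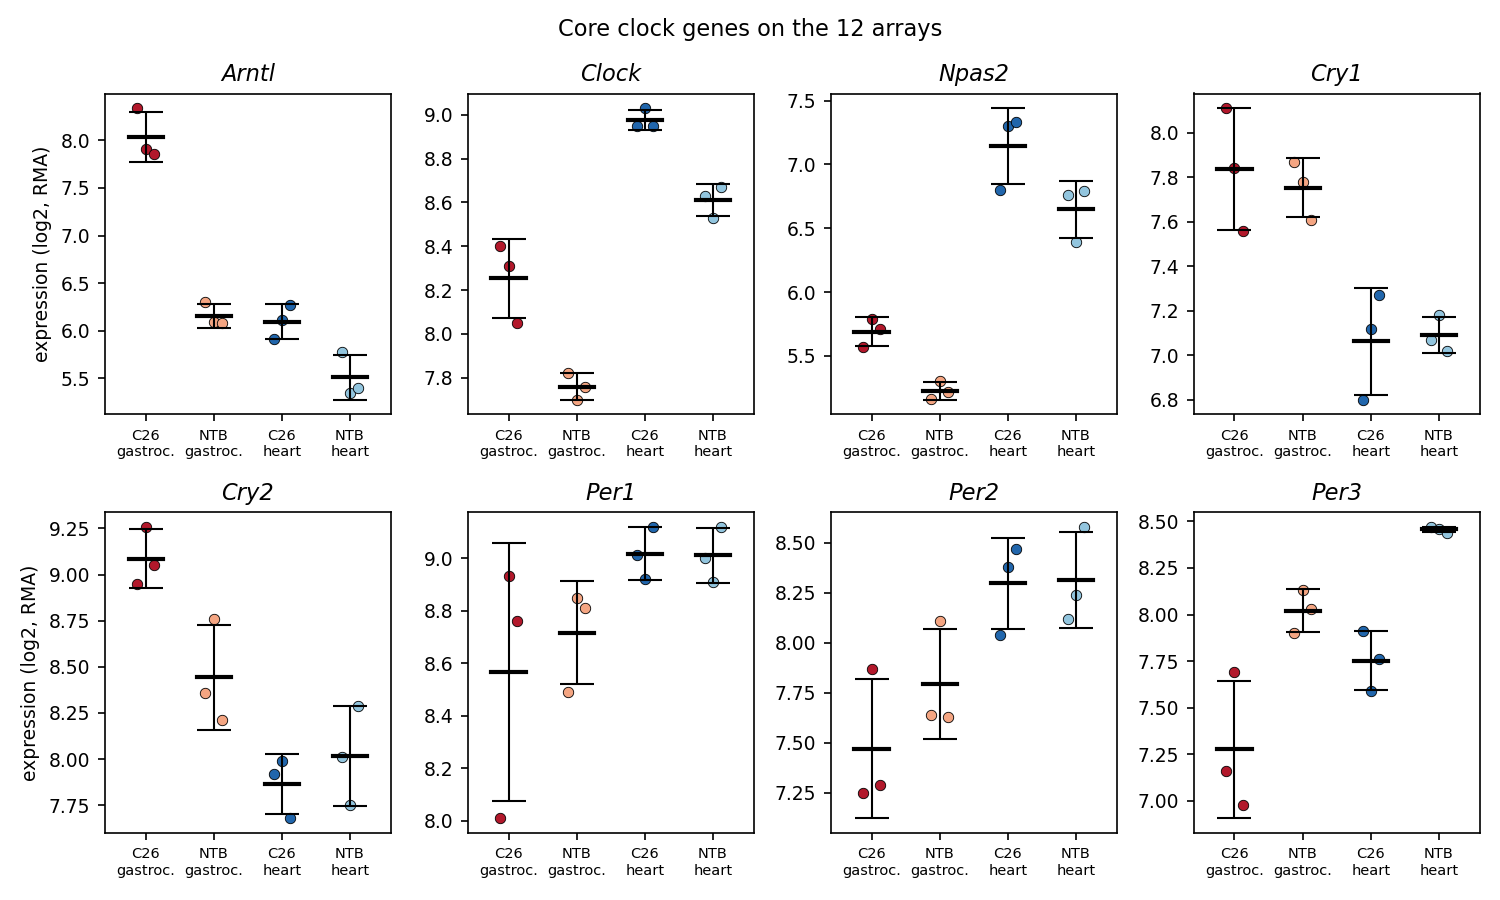
Log2 expression of the 8 core clock genes on the 12 arrays, by group (C26 and NTB gastrocnemius, then C26 and NTB heart). Points are arrays, long bars are group means and error bars are SD (n = 3). The vertical scale differs between genes and does not start at 0. C26 gastrocnemius stands well above NTB gastrocnemius for Arntl (8.04 and 6.16 on average), and both C26 groups lie below their NTB groups for Per3.

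In C26 heart 1 of the 8 clock genes was called, Per3, which was lower. Over all genes 3.23% were called in that comparison, 2.14% higher and 1.10% lower. Per3 had 7.91, 7.59 and 7.76 on the C26 heart arrays, against 8.47, 8.46 and 8.44 on the NTB heart arrays. The NTB values lay within 0.03 of each other, and the highest C26 value was 0.53 below the lowest of them. The difference was -0.71 ± 0.16 (1.63-fold lower, limma adjusted p = 0.0235). It was not called without C26 heart array 2 or 3 (adjusted p = 0.126 and 0.0885) or without NTB heart array 1, 2 or 3 (0.0900, 0.0956 and 0.0862), within a range of 2.48e-04 to 0.126 over the 20 alternatives.

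The 3 genes of the activating arm were higher on every C26 heart array than on any NTB heart array, but none was called in limma with the shared spread. With Per3, the groups did not overlap for 4 of the 8 genes, against 27.6% of all genes. The unadjusted p was under 0.05 for the same count of 4 genes (12.1% of all genes). Arntl had 5.91, 6.11 and 6.27 on the C26 heart arrays, against 5.78, 5.35 and 5.40 on the NTB arrays, and NTB array 1 came close to the C26 arrays. The difference was 0.59 ± 0.16 (1.50-fold, limma adjusted p = 0.0651). It was called without NTB heart array 1 (adjusted p = 0.0465), without C26 gastrocnemius array 1 (0.0300) and without C26 gastrocnemius array 3 (0.0270), within a range of 0.0148 to 0.302 over the 20 alternatives.

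Clock had 8.95, 9.03 and 8.95 on the C26 heart arrays, against 8.63, 8.53 and 8.67 on the NTB heart arrays. Both groups were tight. The difference was 0.37 ± 0.12 (limma adjusted p = 0.134), and its adjusted p was 0.0272 without C26 gastrocnemius array 3, within a range of 0.00642 to 0.442 over the 20 alternatives. Npas2 had 6.80, 7.30 and 7.33 on the C26 heart arrays, against 6.76, 6.39 and 6.79 on the NTB heart arrays, and C26 array 1 was barely above the NTB arrays. The difference was 0.50 ± 0.16 (limma adjusted p = 0.116), and its adjusted p was 0.0308 without C26 heart array 1, within a range of that value to 0.487 over the 20 alternatives.

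With the 6 heart arrays fitted alone, 4 of the 8 genes were called (11.4% of all genes). They were Per3 (limma adjusted p = 2.48e-04), Clock (0.00642), Arntl (0.0148) and Npas2 (0.0463). Over all genes, arrays differed less from the rest of their group in heart (SD 0.17 to 0.20) than in gastrocnemius (0.26 to 0.47). For Npas2 the spread was larger in heart, with an SD of 0.30 in C26 and 0.22 in NTB heart, against 0.11 and 0.07 in gastrocnemius. The shared fit of 12 arrays gives both muscles the same SE for a gene, so the calls in heart depend on which arrays enter it. Without C26 gastrocnemius array 3, 3 of the 8 were called in heart (5.89% of all genes), and with the replicate number as a block 2 were, Arntl (adjusted p = 0.0340) and Per3 (5.22% of all genes).

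The other 4 genes overlapped between C26 and NTB heart. Cry1 had 6.80, 7.12 and 7.27 on the C26 arrays, against 7.07, 7.18 and 7.02 on the NTB arrays. Cry2 had 7.92, 7.99 and 7.68 on the C26 arrays, against 8.01, 7.75 and 8.29 on the NTB arrays. The changes in these cryptochromes were -0.03 (95% interval -0.35 to 0.30) and -0.15 (-0.51 to 0.21). Per1 had 9.01, 8.92 and 9.12 on the C26 arrays, against 9.0, 8.91 and 9.12 on the NTB arrays, nearly the same triplet. Per2 had 8.04, 8.38 and 8.47 on the C26 arrays, against 8.12, 8.24 and 8.58 on the NTB arrays. The changes were 0.01 for Per1 (-0.40 to 0.41) and -0.01 for Per2 (-0.43 to 0.40). With 3 arrays per group these intervals reached about 0.41 either way. That width is not the limit for a call, which can be missed at larger changes, as for Arntl in heart at 0.59.

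**Figure D3:**
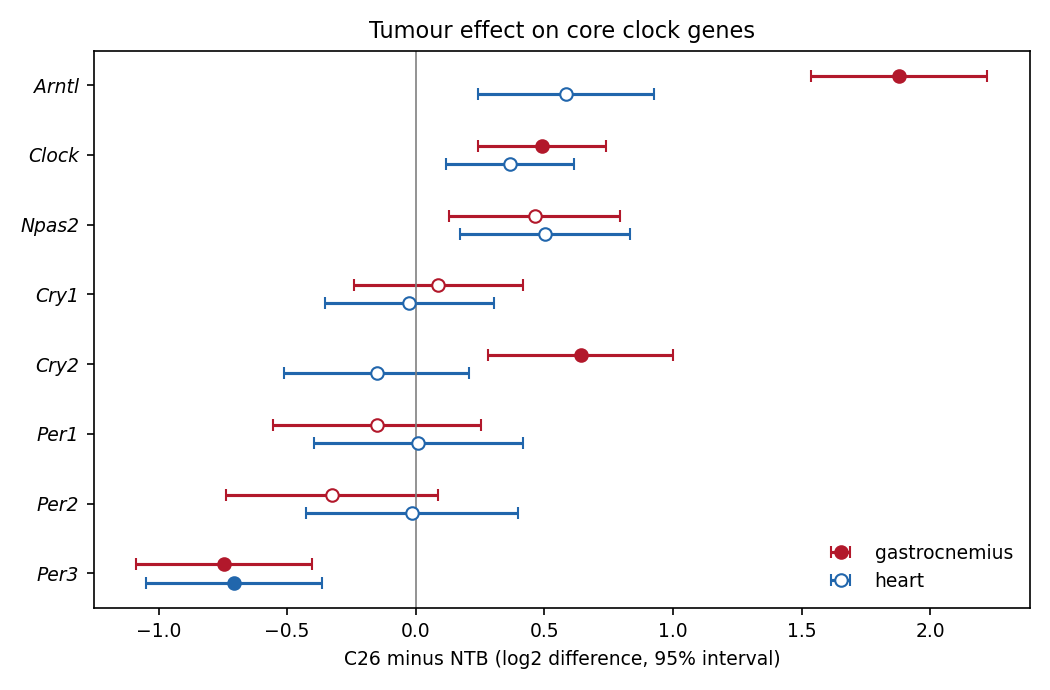
Difference between C26 and NTB arrays for each core clock gene, in gastrocnemius (red, upper mark) and heart (blue, lower mark), on a log2 axis. Points are differences of group means, bars are 95% intervals from the fit of all 12 arrays, and filled points were called. Arntl in gastrocnemius stands apart at 1.88, and Per3 lies near -0.7 in both muscles.

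The tumour effect itself differed between muscles for 1 of the 8 genes, Arntl (4.0% of all genes). Its change was 1.88 in gastrocnemius and 0.59 in heart, and the difference of the effects was 1.29 ± 0.23 (limma adjusted p = 0.00403, called under each of the 19 alternatives). On every NTB heart array Arntl lay below the array median, and the part of that low level in the difference was not tested. For Cry2, with 0.64 in gastrocnemius and -0.15 in heart, the difference of 0.79 ± 0.24 was not called (limma adjusted p = 0.0861). It was called with the replicate number as a block (adjusted p = 0.0327, which makes 2 genes called), without C26 gastrocnemius array 3 (0.0479) and without NTB gastrocnemius array 2 (0.0371), within a range of 0.0327 to 0.234. The effects on Per3 differed by -0.04, with a 95% interval of -0.52 to 0.45, those on Npas2 by -0.04 (-0.51 to 0.43), and those on Clock by 0.13 (-0.23 to 0.48). For Per1, Per2 and Cry1 the differences were -0.16, -0.31 and 0.11, and none was called.

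Without a tumour, most clock genes differed in level between the muscles. Of the 8, 4 were higher and 2 were lower in NTB heart than in NTB gastrocnemius. That background is wide, as 40.6% of all genes were called, 24.8% higher and 15.8% lower. The groups did not overlap for 7 of the 8, against 53.0% of all genes. Npas2 was 2.67-fold higher in heart (6.64 ± 0.22 in NTB heart, 5.23 ± 0.07 in NTB gastrocnemius, mean log2 ± SD, n = 3 each, limma adjusted p = 2.56e-06). Its NTB gastrocnemius values lay below the medians of those arrays (5.96 to 6.01), and the part of that low level in the fold was not tested. Clock was 1.80-fold higher (8.61 ± 0.07 in NTB heart, 7.76 ± 0.06 in NTB gastrocnemius, limma adjusted p = 2.58e-05). Arntl and Cry1 were lower in heart, by 1.57-fold and 1.58-fold (limma adjusted p = 0.00400 and 0.00260).

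Per2 and Per3 were 1.43-fold and 1.35-fold higher in NTB heart (limma adjusted p = 0.0442 and 0.0400). Both calls were weak, with adjusted p up to 0.192 for Per2 and 0.130 for Per3 over the 19 alternatives. The call for Per2 was lost without C26 heart array 2 or 3, NTB heart array 2 or 3, or NTB gastrocnemius array 1 or 3. The call for Per3 was lost without C26 heart array 3, any NTB heart array, or NTB gastrocnemius array 1 or 3. Cry2, at 8.02 in NTB heart and 8.44 in NTB gastrocnemius, was not called (limma adjusted p = 0.0555). It was called without NTB heart array 3, NTB gastrocnemius array 3, or C26 gastrocnemius array 1 or 3 (adjusted p = 0.0246, 0.0288, 0.0492 and 0.0377). Per1 was not called (0.29 ± 0.19, limma adjusted p = 0.248).

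For each gene the 4 group means can be put in order. Arntl was highest in C26 gastrocnemius (8.04), followed by NTB gastrocnemius (6.16), C26 heart (6.09) and NTB heart (5.51), and the middle groups differed by less than their SD of 0.12 and 0.18. For Clock the order was C26 heart (8.98), NTB heart (8.61), C26 gastrocnemius (8.25) and NTB gastrocnemius (7.76). Npas2 kept that order, with 7.15, 6.64, 5.69 and 5.23. For Per3 the order was NTB heart (8.46), NTB gastrocnemius (8.02), C26 heart (7.75) and C26 gastrocnemius (7.28), so that the NTB groups held the top places. Cry1 and Cry2 were higher in both gastrocnemius groups than in either heart group, with Cry1 at 7.84 in C26 and 7.75 in NTB gastrocnemius, and at 7.06 in C26 and 7.09 in NTB heart.

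The members were also compared across arrays after the mean of each muscle was removed. These correlations are descriptions over 12 arrays that share 2 muscles and a tumour contrast. Arntl ran with Clock (Pearson r = 0.901) and Npas2 (0.735) and against Per3 (-0.814). With the mean of each group removed as well, so that only the spread between replicates was left, these values were 0.563, 0.276 and -0.248. In that spread Per1 and Per2 ran together (0.568), as did Per2 and Cry2 (0.640) and Arntl and Cry1 (0.695), while Arntl and Per1 ran against each other (-0.613). Npas2 ran with Per2 (0.610) and Per1 (0.408), while Clock ran against Per1 (-0.508) and had 0.101 with Per2. These are only some of the pairs among the members.

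The genes whose profile was most like that of Arntl over the 12 arrays, with the muscle means removed, were Zwint (r = 0.988), Ap3d1 (0.983), Mustn1 (0.982), Herpud2 (0.979) and Elavl1 (0.979). Those most unlike it were Pld5 (-0.966), Angptl2 (-0.964), Sparcl1 (-0.961), Abcd2 (-0.960) and Map2k6 (-0.959). All 10 were called in C26 gastrocnemius, which their choice favours, since they were picked for likeness to a gene that itself changed there by 1.88. Their changes lay between -2.93 for Map2k6 and 2.09 for Mustn1 in gastrocnemius, and Pld5 and Map2k6 also fell in C26 heart (by 0.49 and 0.64 on the log2 scale). For Per2 the genes most alike were Ppp1r10 (0.924), Mab21l1 (0.901), Ube2m (0.891), Vasn (0.888) and Ilk (0.882). Those most unlike Per2 were Btg1c, S100a11-ps, Defb7, Ankar and Rdh7, with r between -0.868 and -0.863. None of these 10 was called in either muscle. No core clock gene was on either list.

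Partners and outputs of the core clock were read from a list of 16 genes, all measured. In C26 gastrocnemius 2 rose and 8 fell, where 6.45% of all genes rose and 5.44% fell. The median change was -0.47, against -0.003 over all genes. Dbp (-2.72 ± 0.20), which activates through D-boxes and is itself driven by E-boxes, fell most, before the repressors Bhlhe41 (-1.70 ± 0.23) and Ciart (-1.64 ± 0.27). The D-box repressor Nfil3 (1.64 ± 0.30) and the ROR receptor gene Rora (1.20 ± 0.11), whose protein activates Arntl, rose. The deubiquitinase gene Usp2 (-0.95 ± 0.12), the D-box activators Hlf (-0.80 ± 0.12) and Tef (-0.47 ± 0.12), and the repressor Bhlhe40 (-0.77 ± 0.16) fell. The REV-ERB gene Nr1d2 fell (-0.40 ± 0.12), and Nr1d1 had -0.67 ± 0.31 (limma adjusted p = 0.229). The other uncalled partners lay between -0.46 for Tipin and 0.21 for Timeless, with Rorb at -0.09, Arntl2 at 0.04 and Cipc at 0.15.

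In C26 heart 0 of the 16 rose and 5 fell in limma, where 2.14% of all genes rose and 1.10% fell. At an unadjusted p under 0.05, 1 was higher and 7 were lower, where 12.1% of all genes passed in either direction. The median change was -0.32, against 0.008 over all genes. Ciart (-1.16), Bhlhe41 (-1.09), Dbp (-0.88), Hlf (-0.83) and Tef (-0.50) fell. Nfil3 had 1.14 ± 0.30 (limma adjusted p = 0.0510). Rora had -0.03 in heart, and the effect on it differed between muscles by 1.22 (limma adjusted p = 3.49e-04), as did that on Dbp, by -1.84 (0.00149).

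**Figure D4:**
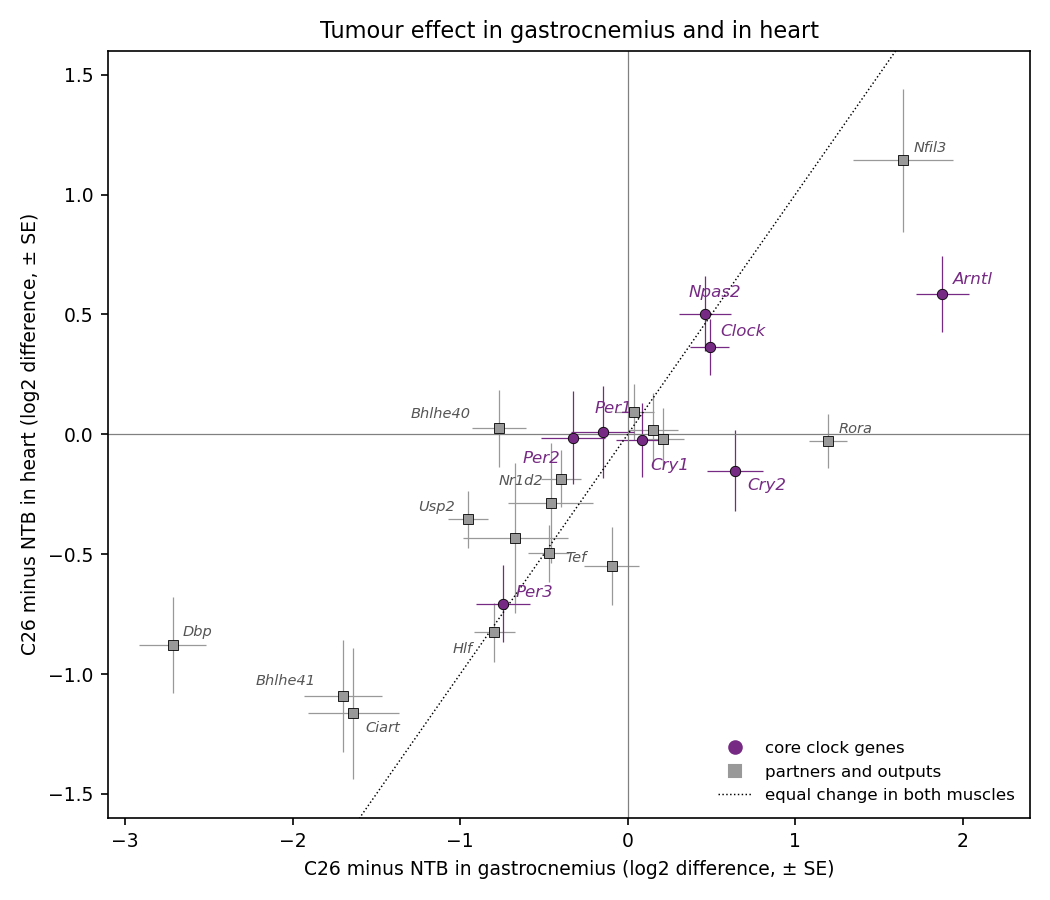
Difference between C26 and NTB arrays in gastrocnemius (horizontal axis) and heart (vertical axis), in log2 units, for the 8 core clock genes (circles) and 16 partners and outputs (squares). Bars are SE of the fit, the dotted line marks equal changes, and partners called in neither muscle are not named. Arntl, Rora and Dbp lie far from the line, and Per3, Hlf and Tef lie on it.

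Enzymes that modify clock proteins were read from a list of 21 kinases, ubiquitin ligases and acetylation factors. In C26 gastrocnemius 4 of the 21 were called, where 11.9% of all genes were. The acetyltransferase gene Kat5 (0.62), the kinase gene Gsk3b (0.55) and the deacetylase gene Sirt1 (0.54) rose and the ubiquitin ligase gene Btrc (-0.46) fell. The median change was 0.12, against -0.003 over all genes. In C26 heart 0 of the 21 were called in limma, where 3.23% of all genes were. At an unadjusted p under 0.05, 1 was higher and 0 were lower, where 12.1% of all genes passed in either direction. The median change in heart was -0.065, against 0.008 over all genes. The casein kinase genes Csnk1d and Csnk1e, whose proteins mark PER for degradation, had 0.18 and 0.41 in gastrocnemius and were not called in either muscle.

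The cAMP, glucocorticoid and heat pathways act on Per genes, and 13 genes of these pathways, targets such as Fkbp5 included, were read. Of the 13, 5 rose and 1 fell in C26 gastrocnemius and 1 rose and 0 fell in C26 heart in limma. The share called over all genes was 11.9% in gastrocnemius and 3.23% in heart. At an unadjusted p under 0.05, 5 were higher and 1 was lower in heart, where 12.1% of all genes passed. The median change was 0.19 in gastrocnemius and 0.24 in heart, against -0.003 and 0.008 over all genes. Fkbp5, a target of the glucocorticoid receptor, rose in both muscles (1.44 ± 0.20 in gastrocnemius, 1.43 ± 0.20 in heart). Tsc22d3 (0.33 in gastrocnemius, 0.27 in heart), Klf9 (0.03 and 0.04) and Sgk1 (-0.26 and 0.46), of the same list, were not called in either muscle. Sik1 (1.59), Crtc2 (0.72), Zbtb16 (0.59) and Hsf1 (0.59) rose in gastrocnemius, where the glucocorticoid receptor gene Nr3c1 fell (-0.53). Per1, a target of both the glucocorticoid and the cAMP pathway, had -0.15 and 0.01 in the same muscles.

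Some markers of other cells were called in each muscle. In C26 gastrocnemius 3 of 5 fibroblast and 2 of 4 tendon markers fell, where 5.44% of all genes fell. The fibroblast markers were Col1a1 (-2.54), Col3a1 (-1.44) and Lum (-1.02), while Dcn (-0.22) and Pdgfra (0.16) were not called. The tendon markers were Tnmd (-2.66) and Scx (-0.63), while Mkx (-0.38) and Thbs4 (0.12) were not called. The mean log2 level of the fibroblast list was 8.44 to 8.87 on the C26 arrays, against 9.43 to 10.1 on the NTB arrays, and that of the tendon list was 6.54 to 7.20, against 7.73 to 7.94. In C26 heart 3 of 6 macrophage markers rose, where 2.14% of all genes rose. The macrophage list mean was 8.71 to 8.79 on the C26 heart arrays, against 7.74 to 7.85 on the NTB heart arrays. None of the fibroblast list was called there in limma. At an unadjusted p under 0.05, 5 of 5 were higher, where 12.1% of all genes passed in either direction. The fibroblast list averaged 9.45 to 9.79 on the C26 heart arrays, against 9.04 to 9.10 on the NTB heart arrays. Of the other lists, 2 of 6 endothelial, 1 of 6 macrophage and 1 of 4 red cell markers rose in gastrocnemius, where 6.45% of all genes rose. In heart 1 of 6 endothelial markers rose, Vwf (0.89), where 2.14% of all genes rose, and the median of that list was -0.016. No neutrophil, adipocyte, Schwann cell or epithelial marker was called in either muscle. Of the muscles' own markers, Casq1 fell in both and Mylpf in gastrocnemius. The 8 limb muscle markers averaged 12.4 to 12.7 on the C26 gastrocnemius arrays, against 13.1 to 13.2 on the NTB arrays. Casq1 (-2.40) changed most there, and the median change of that list was -0.16. Besides Casq1 and Mylpf, the other 6 were not called in gastrocnemius, with changes between -0.26 for Actn3 and 0.05 for Tnnt3. The part of these cells in the clock gene changes was not tested.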

How the data were processed

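Arrays of 4 groups, 3 per group, were analysed. The log2 values were deposited by the authors. Per the submitters' processing notes, RMA, GCOS, Partek and mm8 were used, with no version or role. The log2 scale was inferred from the value range. Another deposited table gave symbols, cut to 7 characters. It was used for names, and its 12 columns of values were not used, since their names are not those of the samples. Of 35556 transcripts 21849 were named through the RefSeq gene table of GRCm38.p6. A gene with several transcripts is represented by that of highest mean, which left 19432 genes.

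One model with 4 group means was fitted to all 12 arrays in R 4.3.3 with limma 3.58.1 (trended variance, 8 residual degrees of freedom, two-sided, Benjamini-Hochberg, threshold 0.05). It had been tested on simulated data. No dim genes were left out. Same-numbered gastrocnemius arrays of C26 and NTB mice deviated together (correlations over genes 0.31, 0.33 and 0.50) and heart arrays did not (0.09, -0.04 and 0.02). The block is given where it changes a call. The number of arrays limits the precision.

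The members and lists were chosen with earlier results of these data known. Besides the 8 members, the text names the 5 genes most and least like Arntl and Per2 by correlation over arrays (without predicted genes), and up to 6 called genes of each list by size of change. Any other list member named was picked after its values were seen, and 1 member of the list of partners is not reported here. Alternatives were quantile normalization, median shift, a filter at a mean log2 of 5, no variance trend, each muscle alone, the replicate block, all transcripts tested, row means, and leaving out each array.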

Additional observations from a re-analysis of the deposited data

Results flagged for a closer look

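The tumour effect on Arntl was larger in gastrocnemius than in heart by 1.29 on the log2 scale. It was singled out because the test of that difference itself passed the threshold (limma adjusted p = 0.00403). All 3 C26 arrays lay above all 3 NTB arrays in both muscles. On the NTB heart arrays Arntl was dim, at 5.35 to 5.78, below the medians of those arrays (6.03 to 6.06). The part of that low level in the size of the change in heart was not tested. The muscles came from separate cohorts, so the difference is also one between cohorts. Groups of 3 arrays were not tested for stray arrays.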

How the results depend on the processing

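The count of clock genes called in C26 gastrocnemius was 4, and 1 with each muscle fitted alone (2311 and 906 genes called over all). With all transcripts tested it was 3, as Cry2 was not called (adjusted p = 0.0522). Without 1 array it was 3 to 5. In heart it was 1, and 3 with quantile normalization, 2 with dim genes left out, 4 with the heart arrays alone, 2 with the replicate block (628 genes over all, against 2212 and 1014) and 0 in limma with all transcripts tested, where Per3 had an adjusted p of 0.0763. At an unadjusted p under 0.05 it was 4 under each of the 20 alternatives. Without 1 array it was 0 to 3. For the difference of effects it was 1, 2 with the replicate block, and 1 to 2 without 1 array. For NTB heart against NTB gastrocnemius it was 6, and 4 to 7 without 1 array. Of the alternatives, the share called over all genes is given only for 3, and only for the tumour effect within a muscle. These are each muscle alone, the replicate block, and the fit without C26 gastrocnemius array 3. Counts under the other alternatives cannot be set against such a share. The replicate block changed the call of Arntl in heart (adjusted p = 0.0340) and of Cry2 in the difference of effects and in NTB heart against NTB gastrocnemius (0.0327 and 0.0269), and no other call of a clock gene. Directions turned for uncalled values near 0. Without 1 array the change in gastrocnemius lay between -0.048 and 0.23 for Cry1 and between -0.33 and 0.13 for Per1. In heart it lay between -0.13 and 0.11 for Cry1, -0.041 and 0.064 for Per1, and -0.11 and 0.12 for Per2, and with arrays shifted to a common median that of Per1 was -0.00141. The difference of effects lay between -0.21 and 0.086 for Npas2, -0.023 and 0.25 for Cry1, -0.34 and 0.12 for Per1, and -0.24 and 0.11 for Per3. Fewer arrays, other arrays in the shared spread or more transcripts in the adjustment enter these fits by construction, and other causes were not tested. With 3 arrays per group the 95% interval of a tumour effect reached 0.25 to 0.41 to either side, by gene.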
